A study of Mus musculus with 2 samples.

Results

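The cells described here are 200 tumour cells of a mouse brain tumour, 100 from each of 2 single-cell RNA libraries, that scored highest for 5 genes: Scx, Tnnt2, Timp3, Igfbp7 and Plpp3. They were drawn from 1234 gated tumour cells (692 in replicate 1 and 542 in replicate 2) among 4970 barcodes in all. Both libraries were labelled as tumour cells from mutant IDH1 (mIDH1) brain tumours of C57BL/6 mice at the symptomatic stage, from a genetically engineered glioma model. They formed 1 group, so every comparison below sets classes of cells of a library against each other. The labels name no other allele or agent and do not tell whether 1 animal or more gave them. The p-values thus reflect at most the spread between these libraries, which may be technical. In the comparison with the other gated tumour cells that spread was shared by all genes. A p-value there does not measure how its own gene varied between the libraries.

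The ranked cells were chosen by a rule that read the measured counts. A cell had to hold at least 200 genes, at most 15% mitochondrial UMIs (unique molecular identifiers, which count RNA molecules), at least 10000 UMIs, Nras of at least 1000 CPM (its count times 1000000 over the UMIs of the cell), at most 1 UMI of the myeloid genes Tyrobp and Fcer1g together, and no UMI of Pdgfrb. Within each library, cells were then ordered by the sum of log2(CPM + 1) of the 5 genes, and the first 100 were taken. Cells with a UMI of Pdgfrb that passed all other limits, 340 in replicate 1 and 312 in replicate 2, were kept aside as a comparison class and are called Pdgfrb-positive cells. The levels of the 5 ranking genes and of the gating genes are therefore a description and carry no test.

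Scx (scleraxis) is a basic helix-loop-helix transcription factor best known as an early marker of tendon and ligament progenitors, where it acts with TGF-beta signals and with factors such as Mkx ahead of late tendon genes such as Tnmd and Fmod. Tnnt2 encodes cardiac troponin T, a thin-filament protein of heart muscle. Timp3 encodes an inhibitor of metalloproteases that binds to extracellular matrix, Igfbp7 encodes a secreted protein of the IGF-binding family found around vessels, and Plpp3 encodes a membrane phosphatase that breaks down lysophosphatidic acid outside the cell. Basic helix-loop-helix factors bind short DNA motifs called E-boxes.

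The promoters of the ranking genes are shown because these genes define the cells. RefSeq promoter sequences (GRCm38.p6, 250 bases before to 50 after a transcription start) were at hand for 4 of the 5 ranking genes, Scx being the exception. Capitals mark the E-box letters CANNTG, whose pattern reads the same on both strands and which were searched with overlaps allowed. The Timp3 window lies at chr10:86300162-86300461 on the plus strand, the upstream one of the pair of Tnnt2 windows at chr1:135836084-135836383 on the plus strand, the Igfbp7 window at chr5:77407996-77408295 on the minus strand and the Plpp3 window at chr4:105157097-105157396 on the plus strand.
Timp3: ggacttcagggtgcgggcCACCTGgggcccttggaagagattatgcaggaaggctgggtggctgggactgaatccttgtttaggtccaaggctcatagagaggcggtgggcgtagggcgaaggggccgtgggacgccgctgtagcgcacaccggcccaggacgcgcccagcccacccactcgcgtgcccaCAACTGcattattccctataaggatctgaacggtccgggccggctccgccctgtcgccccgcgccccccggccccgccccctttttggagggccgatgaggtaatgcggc
Tnnt2: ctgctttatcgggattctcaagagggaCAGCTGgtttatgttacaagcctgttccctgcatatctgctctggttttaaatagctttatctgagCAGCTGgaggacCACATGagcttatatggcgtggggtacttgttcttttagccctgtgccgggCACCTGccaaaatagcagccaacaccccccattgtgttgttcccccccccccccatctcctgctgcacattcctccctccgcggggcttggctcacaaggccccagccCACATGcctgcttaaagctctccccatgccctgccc
Igfbp7: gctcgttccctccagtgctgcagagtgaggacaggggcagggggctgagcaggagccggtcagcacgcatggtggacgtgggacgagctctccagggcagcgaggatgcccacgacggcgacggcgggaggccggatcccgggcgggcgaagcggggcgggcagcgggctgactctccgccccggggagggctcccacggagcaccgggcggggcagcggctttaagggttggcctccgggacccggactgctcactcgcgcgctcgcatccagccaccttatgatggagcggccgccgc
Plpp3: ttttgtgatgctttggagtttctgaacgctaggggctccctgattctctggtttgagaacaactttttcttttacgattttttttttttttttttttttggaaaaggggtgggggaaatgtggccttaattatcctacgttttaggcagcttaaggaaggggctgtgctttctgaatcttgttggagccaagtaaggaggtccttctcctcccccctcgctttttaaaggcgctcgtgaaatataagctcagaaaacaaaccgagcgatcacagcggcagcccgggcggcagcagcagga
The Timp3 window held 2 matches, the Tnnt2 window 5, and the Igfbp7 and Plpp3 windows 0. Of all 32851 promoter windows in the table, 72.3% held at least 1 match, so a match is common and describes only the letters in the window.

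Expression of the ranking genes separated the ranked cells from the rest in both libraries, as the rule required. Scx (chr15:76457452-76459458) was counted at 92.7 CPM in the ranked cells of replicate 1 and 73.4 CPM in those of replicate 2, against 18.1 and 15.6 CPM in the other gated tumour cells. Timp3 (chr10:86300372-86349506) stood at 65.2 CPM in both libraries, against 7.67 and 7.98 CPM. Igfbp7 (chr5:77349240-77408041) stood at 124 and 106 CPM, against 21.5 and 15.9 CPM. These 3 genes were low but present in the other tumour cells.

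Plpp3 (chr4:105157347-105232764) was counted at 38.2 and 32.5 CPM in the ranked cells and at 5.001 and 4.54 CPM in the others. Tnnt2 (chr1:135836354-135852260) was the most broadly held of the 5, at 226 and 233 CPM in the ranked cells and 125.4 and 117 CPM in the others. At least 1 UMI of Tnnt2 was found in all 200 ranked cells and in 81.9% and 81.7% of the others. Of myeloid cells, which should lack these genes, 0.474% and 1.40% held a UMI of Tnnt2, at median depths of 6861 and 8846.5 UMIs against 39636 and 42654.5 UMIs in the ranked cells.

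**Figure D1:**
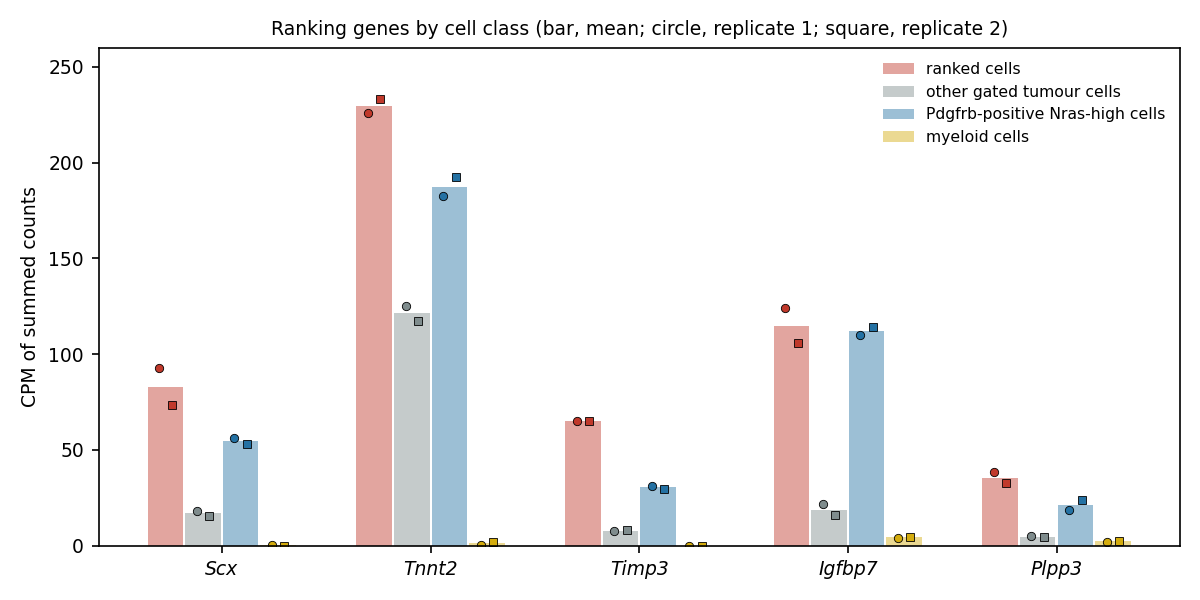
CPM of the 5 ranking genes in 4 classes of cells, from counts summed over the cells of each class and library (bar, mean of 2 libraries; circle, replicate 1; square, replicate 2). Each ranking gene is lowest in myeloid cells, next in the other gated tumour cells, and for Scx, Tnnt2, Timp3 and Plpp3 highest in the ranked cells, which were chosen for them.

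Few ranked cells held the whole set of genes. In replicate 1, 14 ranked cells had a UMI of 3 of the 5 genes, 60 of 4 and 26 of all 5, and in replicate 2 the numbers were 22, 50 and 28. Among the other gated tumour cells none held all 5. Timp3 was absent from 27 and 30 of the 100 ranked cells, Plpp3 from 36 and 39, and Scx from 10 and 16. The counts were small per cell, with a median of 2 Scx UMIs in each library and 1 and 2 Timp3 UMIs. The 10 ranked cells with the most Scx held 40.5% of its UMIs in replicate 1 and 37.7% in replicate 2.

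The score ran on without a step across the limit. In replicate 1 the cell at rank 100 scored 21.67 and the next cell 21.64, and in replicate 2 the scores were 20.66 and 20.64. Within 1 unit of the limit, 17 ranked and 15 other cells lay in replicate 1, and 15 and 10 in replicate 2. The median score was 25.48 and 24.58 in the ranked cells and 11.58 and 10.71 in the others. When every cell was first thinned to 10000 UMIs, 133 of the 200 ranked cells were chosen again.

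**Figure D2:**
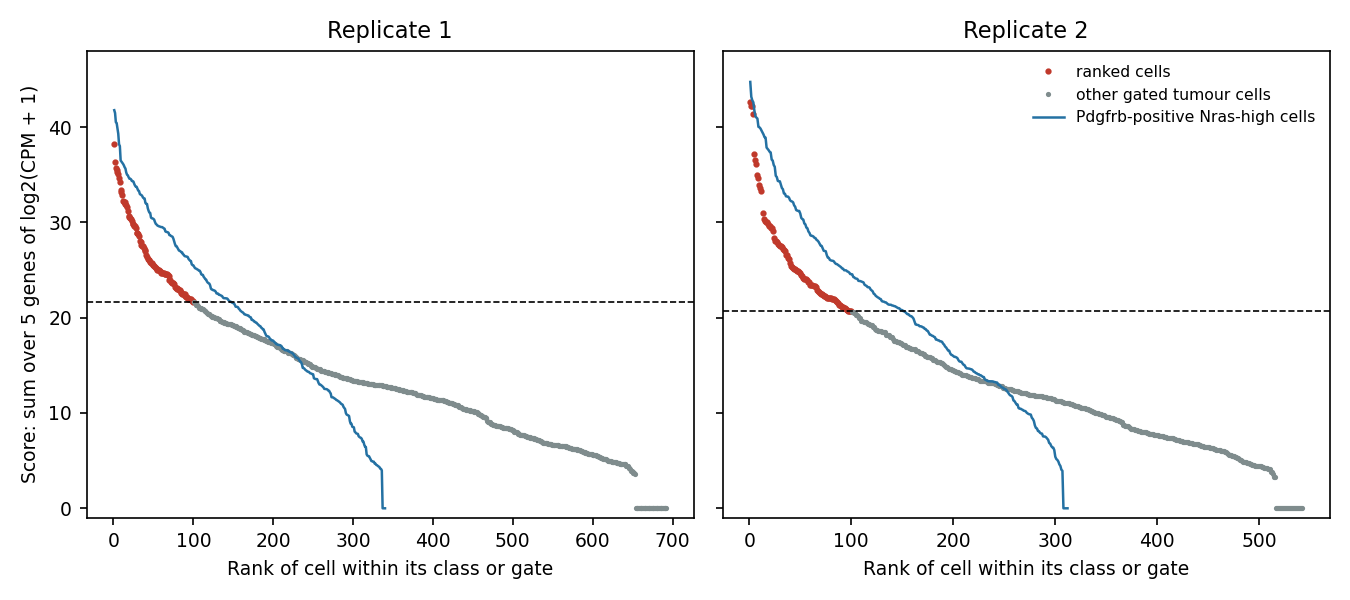
Score of each tumour cell, the sum over 5 genes of log2(CPM + 1), against its rank, for replicates 1 and 2. Red points are ranked cells, grey points the other gated tumour cells ranked after them, the blue line the Pdgfrb-positive cells ranked among themselves, and the dashed line the score at rank 100 (21.67 and 20.66).

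The choice of cells was also made with each ranking gene left out in turn. When cells were ranked on the other 4 genes, the first 100 cells per library held more of the left-out one than the rest. The left-out Timp3 was 4.36 and 3.53 times as high in those cells, Plpp3 4.05 and 3.72 times, Scx 3.08 and 2.99 times and Igfbp7 2.86 and 2.61 times. Tnnt2, the gene with the broadest background, was 1.46 and 1.71 times as high. Leaving out Timp3 kept 73 and 77 of the 100 ranked cells, and leaving out Tnnt2 kept 91 in each library. These ratios describe the set and support nothing about it, because the 5 genes were put together from these same cells. At matched depth the pairs differed in how often they met. After thinning, Igfbp7 was found in 38.3% and 30.4% of gated cells with a Scx UMI, and in 15.7% and 16.6% of those without one. Tnnt2 was found in 65% and 60.8% of cells with a Scx UMI and in 59.4% and 58.2% of those without one. It was found in 60.7% and 65.9% of cells with a Plpp3 UMI and in 60.4% and 58.1% of those without one. In each library these gaps of Tnnt2 with Scx and with Plpp3 were smaller than that of Igfbp7 with Scx. The gaps of Tnnt2 with the remaining ranking genes were wider. Tnnt2 was found in 72.1% and 73.1% of cells with an Igfbp7 UMI and in 57.6% and 55.3% of those without one. For Timp3 the shares were 72.5% and 66.7% against 59.1% and 57.7%.

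The ranked cells differed little from the other gated tumour cells in quality. Their median depth was 39636 and 42654.5 UMIs against 42592 and 47909.5, and their median mitochondrial share 3.66% and 3.70% against 3.14% and 3.23%. At a fixed 10000 UMIs a cell they showed a median of 2921.5 and 2898 genes, against 2862 and 2856.5. Nras, a gating gene, was lower in them at 2368 and 2767 CPM against 2920 and 3497 CPM. The libraries held 63001350 and 58915133 UMIs in all, 10 barcodes occurred in both, and none of those 10 was a gated cell. Of the ranked cells, 4 and 8 carried the single UMI of Tyrobp or Fcer1g that the gate allows. The part of depth, mitochondrial share or Nras in the differences below was not tested beyond the alternatives given at the end.

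The name tendon-like was set against tendon and ligament genes beyond Scx, of which the defining late ones were at or near 0. Of 30 listed tendon and ligament genes found in the files, 9 besides Scx had enough counts to be tested and 0 passed the call, which asked for an adjusted p under 0.05 and at least a 2-fold difference and which 1.89% of all genes tested passed. By edgeR's quasi-likelihood test 5 of the 9 had an adjusted p under 0.05 at a smaller fold, against 13.9% of all genes: the matrix genes Bgn, Htra3, Col5a1 and Tnc higher and the early-response factor Egr1 lower. The defining late tendon genes Tnmd and Fmod had 0 UMIs in the ranked cells of both libraries. For Tnmd, 0 of 100 cells in a library leaves room for up to 3.62% of cells carrying one (exact binomial, counting error only, as for every interval here). Thbs4, Kera, Comp, Cilp and Lum were likewise at 0 in the ranked cells.

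Mkx, a homeobox factor that follows Scx in tendon, was counted at 2.70 and 2.53 CPM in the ranked cells and 2.43 and 2.29 CPM in the others, with an adjusted p of 0.901 by edgeR. The chains of collagen I, the main tendon collagen, were nearly missing: Col1a1 had 3 and 5 UMIs in the ranked cells and 3 and 2 in the many more other cells, and Col1a2 had 1 UMI in all. Over both libraries the Col1a1 level was 8.81 times that of the other cells, with a 95% counting interval of 2.54 to 34.2, at 0.835 CPM. Dcn, a tendon and fibroblast proteoglycan, had 1 UMI in the ranked cells. The summed level of the 29 listed tendon genes other than Scx was 163 and 158 CPM in the ranked cells, 140 and 147 CPM in the others, and 173 and 190 CPM in myeloid cells. With Tnmd and Fmod at 0 and collagen I near 0, the cells are called by their leading genes here, and not tendon-like.

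Several markers of other cell types were at 0, but the mural, endothelial and fibroblast sums were above those of the other gated cells. The mural list (pericytes and smooth muscle), with 13 genes outside the rule, summed to 11.5 and 10.3 CPM against 9.04 and 8.24 CPM in the others, and Rgs5, Abcc9, Vtn and Higd1b were at 0. The endothelial list summed to 72.9 and 76.6 CPM against 58.0 and 51.4 CPM, with Kdr, Cldn5, Tek, Tie1, Emcn, Vwf and Erg at 0. The fibroblast list summed to 56.5 and 68.6 CPM against 49.4 and 42.6 CPM, with Lum, Fap, Thy1, Dpt, Mfap4 and Mfap5 at 0. In the Pdgfrb-positive cells the mural list summed to 11.4 and 13.7 CPM, the endothelial list to 76.0 and 80.1 CPM and the fibroblast list to 63.1 and 71.8 CPM. No mural, endothelial or fibroblast class was set beside them. The 11 myeloid genes outside the rule summed to 9.67 and 14.6 CPM, against 41170 and 42770 CPM in myeloid cells. No gene of the mural, fibroblast or endothelial lists was called. A UMI of Pecam1, Cdh5, Kdr, Rgs5, Ptprc or Cd3e occurred in 7 and 15 ranked cells and in 11.8% and 11.1% of the other gated cells.

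The comparison with the other gated tumour cells asks which genes outside the rule go with a high score. Counts were summed per class and library and tested with edgeR, library as a block. Of 11675 genes tested, 221 (1.89%) were called, 165 (1.41%) higher and 56 (0.48%) lower in the ranked cells, while 1623 (13.9%) had an adjusted p under 0.05 at any fold. Rises were seen in a gene of muscle and GATA-factor control (Lmcd1), in iron and copper proteins (Trf, Cp), in an extracellular antioxidant enzyme (Sod3), in the imprinted RNA H19 and in matrix and cell-junction genes (Col6a1, Fbn1, Myzap). The median difference over all tested genes was -0.0021 on the log2 scale.

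Lmcd1 (chr6:112273758-112330425), a LIM-domain cofactor that restrains GATA6, was counted at 16.0 and 24.0 CPM in the ranked cells of the libraries and at 0.891 and 1.66 CPM in the others. It was 17.9 and 14.5 times as high, with a fitted log2 difference of 3.94 (SE 0.22, adjusted p = 3.188e-67, edgeR). After thinning, 15% and 22% of ranked cells and 0.845% and 2.04% of the others held a UMI of Lmcd1. The UMIs were spread over 36 and 35 ranked cells.

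Trf, which encodes the iron carrier transferrin, stood at 46.1 and 49.7 CPM against 8.08 and 11.1 CPM (log2 difference 2.29, SE 0.12). Cp, which encodes the copper ferroxidase ceruloplasmin, stood at 19.8 and 24.0 CPM against 4.86 and 3.44 CPM (log2 difference 2.36, SE 0.17). Myeloid cells carry both transcripts, and 77.7% and 85.8% of them held a Trf UMI. Of the ranked cells, 39 and 37 held a Trf UMI, against 13.7% and 15.6% of the other gated cells. The 11 myeloid genes outside the rule summed to 9.67 and 14.6 CPM in the ranked cells and 17.8 and 17.2 CPM in the other gated cells. The part of free myeloid RNA in the Trf and Cp counts was not tested beyond these sums.

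Sod3, the secreted superoxide dismutase, rose from 0.582 and 0.637 CPM in the others to 4.72 and 4.09 CPM (log2 difference 2.80, SE 0.40). H19, an imprinted noncoding RNA, stood at 14.9 and 8.57 CPM against 2.67 and 1.15 CPM, and was found in 11 and 12 ranked cells. Bicc1, an RNA-binding protein, stood at 5.17 and 3.90 CPM against 0.891 and 1.02 CPM. Nrep stood at 8.77 and 6.62 CPM against 1.75 and 1.74 CPM. In each of these genes both libraries showed at least a 3-fold ratio.

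The other large rises included a transcription factor, a junction protein and a retinoid enzyme. Mef2c, a muscle and vascular transcription factor, stood at 10.8 and 11.5 CPM against 3.22 and 2.80 CPM (log2 difference 1.85, SE 0.22). Myzap, a protein of heart-muscle junctions, stood at 22.5 and 21.04 CPM against 6.68 and 6.41 CPM (log2 difference 1.70, SE 0.15), and was found in 48 and 53 ranked cells. Dhrs3, which reduces retinaldehyde to retinol, stood at 17.8 and 16.4 CPM against 4.45 and 4.33 CPM (log2 difference 1.92, SE 0.18). Stra6, a cell-surface receptor for retinol-binding protein, stood at 8.10 and 4.87 CPM against 2.33 and 2.51 CPM (log2 difference 1.37, SE 0.28). Fcgrt, the neonatal Fc receptor, stood at 5.85 and 4.48 CPM against 1.68 and 1.40 CPM. AW112010, an inflammation-induced transcript of mouse immune cells, stood at 68.8 and 66.2 CPM against 24.4 and 15.9 CPM.

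**Figure D3:**
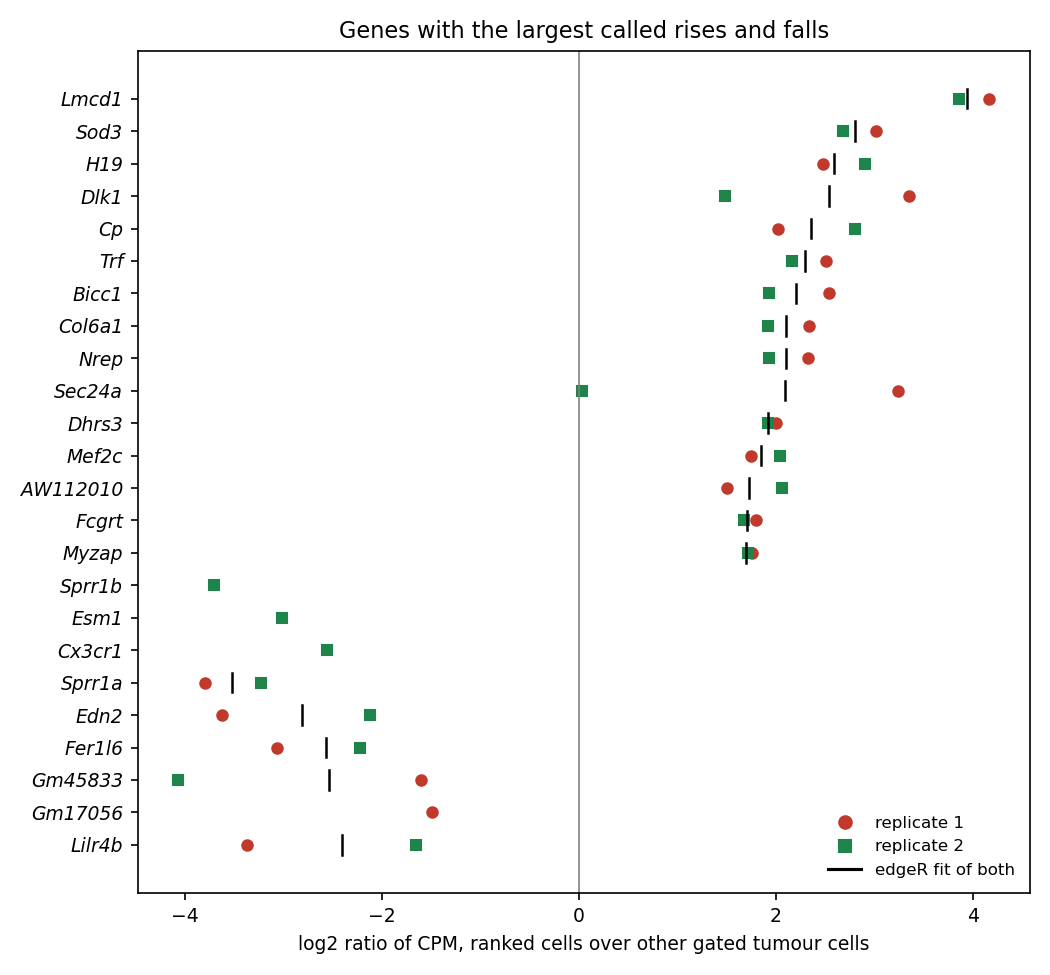
log2 ratio of CPM, ranked cells over other gated tumour cells, for the genes with the largest called rises and falls (circle, replicate 1; square, replicate 2; black tick, edgeR fit where both libraries have counts). A library where the ranked cells have 0 UMIs has no point and Fry, at 0 in both, is not drawn; Sec24a is far to the right in replicate 1 and near 0 in replicate 2.

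Some called rises came from single cells. Sec24a, a coat protein of secretory vesicles, had 503 UMIs in the ranked cells of replicate 1, of which 90.9% lay in 1 cell, and its log2 ratio in replicate 2 was 0.03. Dlk1, an imprinted membrane protein related to Notch ligands, stood at 13.3 and 4.29 CPM against 1.30 and 1.53 CPM, with 94.9% and 54.5% of its UMIs in 1 cell of each library. The log2 difference turned to -0.73 for Sec24a in low-cycling cells, and for Dlk1 to -1.65 with Nras of at least 2000 CPM and to -0.30 when cells were ranked on summed CPM. Hbb-bs, a haemoglobin chain, came mainly from 1 ranked cell of replicate 1, which held 7193 haemoglobin UMIs or 99.3% of those in that library's ranked cells. Among the 65 called rises with at least 20 UMIs in the ranked cells of each library, 4 had at least 50% of their UMIs in 1 cell of a library: Dlk1, Fam20c, Hbb-bs and Sec24a. In the other 61 the fullest cell held a median of 9.68% and 10.9% of the UMIs. With a robust spread in edgeR, an alternative added after seeing the data, Sec24a (adjusted p = 0.662), Hspa1a (0.705) and Ccl2 (0.62) lost their calls, and so did Hbb-bs and Sec24a in the fit against Pdgfrb-positive cells.

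Most called genes moved the same way in both libraries, which is no separate check because the calls were made from these same libraries. A library without a ratio, for want of counts, was taken as lower. Of the 221 called genes, 210 had the same sign in both libraries, 116 were at least 2-fold higher in each and 33 at least 2-fold lower in each. DESeq2 gave 17 of the 221 an adjusted p, and 10 of these passed its call: Trf, AW112010, Trbc1, Mxra8, Bpgm, Anxa8, S100a4, Sulf2 and Tspan8 were higher and Crabp1 was lower. Anxa8, an annexin, was the most abundant, at 118 and 122 CPM against 56.3 and 51.3 CPM. Trbc1, a T cell receptor constant segment, stood at 103 and 88.4 CPM against 40.9 and 37.7 CPM. Of 8 listed lymphocyte genes, Cd3e, Cd3d, Nkg7, Ms4a1 and Cd2 had 0 UMIs in the ranked cells. The other receptor segment Trac, Cd79a and Lck had counts. The 8 genes summed to 2.70 and 3.70 CPM in the ranked cells and 5.58 and 3.31 CPM in the other gated cells.

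The genes with the largest falls were rare ones. Fry, a microtubule-binding scaffold, had 0 UMIs in the ranked cells and 47 and 29 in the others, which is at least 2.39-fold and 2.11-fold lower against a floor of 3 counts per library. The epithelial envelope genes Sprr1b and Sprr1a had 1 and 2 UMIs in the ranked cells and 180 and 134 in the others. Sprr1a was 12.2 times as high in the others, with a 95% counting interval of 3.30 to 101.5. Esm1, a proteoglycan secreted by growing endothelium, had 2 UMIs against 167, and Edn2, an endothelin, 3 against 121. The UMIs of Edn2 in the other cells came from 7 and 8 cells, and the fullest cell held 44.4% and 65% of them. For Sprr1b the fullest other cell held 35.8% and 46.7%, and for Sprr1a 19.8% and 23.3%. For Esm1 it held 20.4% and 20.3%, and for Fry 17% and 20.7%.

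Cx3cr1, the fractalkine receptor of microglia, had 1 UMI in the ranked cells and 88 in the others. There 13 and 8 cells held it, the fullest with 21.3% and 48.1% of the UMIs. Lilr4b, an inhibitory receptor of myeloid cells, had 7 UMIs against 208 in the others. Fer1l6 had 3 against 98, Gm45833 5 against 157 and Gm17056 2 against 65. More abundant genes fell too. Crabp1, which binds retinoic acid, stood at 11.7 and 15.2 CPM in the ranked cells and 40.8 and 31.6 CPM in the others (log2 difference -1.44, SE 0.13, edgeR adjusted p = 4.225e-25). Fst, which encodes the activin inhibitor follistatin, stood at 8.10 and 3.90 CPM against 13.1 and 16.5 CPM (log2 difference -1.37, SE 0.19), but in low-cycling cells alone its log2 difference was 0.47.

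Many genes of the extracellular matrix had higher levels in the ranked cells, though few reached the fold limit. Over all genes, 1.41% were called higher. Of 31 tested basement membrane and matrix glycoprotein genes, 3 were called higher (Fbn1, Loxl3 and Thbs2) and 0 lower, and 18 had an adjusted p under 0.05 with a higher level, against 13.9% of all genes in either direction. Their median log2 difference was 0.47. Fbn1, which encodes the microfibril protein fibrillin, stood at 19.1 and 16.95 CPM against 6.17 and 7.22 CPM. Thbs2, a matricellular thrombospondin, stood at 11.02 and 8.96 CPM against 4.62 and 4.33 CPM. Loxl3, a lysyl oxidase that cross-links collagen, stood at 6.97 and 4.29 CPM against 2.88 and 1.95 CPM.

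Of 12 tested collagen chains, Col6a1 and Col12a1 were called higher, none was lower, and the median log2 difference was 0.66. Over all genes, 1.41% were called higher and 0.48% lower. Col6a1, a chain of microfibrillar collagen VI, stood at 8.997 and 6.43 CPM against 1.78 and 1.70 CPM. Col12a1, a collagen that decorates fibrils, stood at 4.27 and 1.56 CPM against 0.411 and 0.552 CPM. The basement membrane chain Col4a1 stood at 36.2 and 40.9 CPM against 28.5 and 24.4 CPM, a difference of 0.51 on the log2 scale that did not reach the fold limit. Among integrins, Itga1, a collagen receptor, stood at 8.55 and 8.57 CPM against 2.09 and 3.14 CPM, and Itgb4, a laminin receptor chain, at 3.37 and 5.65 CPM against 0.856 and 0.934 CPM.

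Of 21 tested inhibitors and metalloproteases besides Timp3, 4 were higher by the adjusted p alone, against 13.9% of all genes in either direction. The only 1 called was Adamts9, which cleaves proteoglycans, against 1.41% of all genes called higher. Adamts9 had 9 and 10 UMIs in the ranked cells and 20 in the others of each library. Timp1 stood at 378 and 406 CPM against 342 and 322 CPM, a log2 difference of 0.20 with an adjusted p of 0.000864 by edgeR. Timp2 stood at 169 and 170 CPM against 153 and 149 CPM, with an adjusted p of 0.112. The membrane protease Mmp14 stood at 17.5 and 22.01 CPM against 12.7 and 12.4 CPM, a log2 difference of 0.62.

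Among 11 tested IGF and IGF-binding genes besides Igfbp7, 0 were called, against 1.89% of all genes. Igfbp4, a secreted IGF-binding protein, was abundant at 2169 and 1969 CPM against 1615 and 1488 CPM, a log2 difference of 0.38. Of 17 tested genes of lysophospholipid handling besides Plpp3, 1 was called: Enpp2, the secreted enzyme autotaxin that makes lysophosphatidic acid, with 10 and 8 UMIs in the ranked cells and 7 and 4 in the others. Enpp2 was 9.01 times as high, with a 95% counting interval of 4.03 to 21.1. The lysophosphatidic acid receptor Lpar1 stood at 11.02 and 11.7 CPM against 8.12 and 7.35 CPM.

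Muscle genes besides Tnnt2 gave 2 called rises among 7 tested, against 1.41% of all genes. Tnni1, slow skeletal troponin I, had 9 UMIs in the ranked cells of each library and 13 and 10 in the others. Tpm2, a tropomyosin, stood at 22.3 and 22.2 CPM against 10.0 and 11.6 CPM (log2 difference 1.005, SE 0.14), close to the fold limit. Actc1, Tagln, Cnn1, Myh6 and Myh7 had 0 UMIs in the ranked cells.

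TGF-beta and BMP genes gave 3 called rises and 1 fall among 38 tested, against 1.41% and 0.48% of all genes, and 11 were higher and 2 lower by the adjusted p alone. The ligands Bmp5 (4.27 and 2.34 CPM against 0.993 and 1.02 CPM), Bmp4 (1.80 and 3.70 CPM against 0.891 and 1.44 CPM) and the activin subunit Inhbb (3.15 and 3.31 CPM against 1.54 and 1.27 CPM) were higher, and the inhibitor Fst was lower, though not in low-cycling cells, where its log2 difference was 0.47. Tgfb1 stood at 104 and 99.7 CPM against 101.9 and 98.8 CPM, with an adjusted p of 0.904 by edgeR. Of 19 tested TGF-beta target genes 0 were called, but 8 were higher and 1 lower by the adjusted p alone, against 13.9% of all genes in either direction, with a median log2 difference of 0.33. The target Pmepa1 stood at 494 and 535 CPM against 360 and 360 CPM, a log2 difference of 0.48. The inhibitory Smad7 stood at 95.6 and 89.4 CPM against 83.9 and 88.9 CPM.

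No gene of the glioma state or cell cycle lists was called, against 1.89% of all genes. By the adjusted p alone the share of all genes was 13.9% in either direction. Of 10 tested glioma stem and progenitor genes 0 were called, but 7 (Hes1, Id1, Id2, Id3, Tnc, Nes and Vim) were higher and 0 lower by the adjusted p alone, with a median log2 difference of 0.27. The neural stem cell factor Sox2 stood at 14.6 and 18.1 CPM against 19.97 and 17.8 CPM. Sox9 stood at 156 and 164 CPM against 153 and 157 CPM. Of 17 tested mesenchymal glioma genes 0 were called, although 8 were higher and 4 lower by the adjusted p alone. The matrix protein Sparc, on that list, stood at 202 and 205 CPM against 139 and 125.1 CPM. Of 26 tested cell cycle genes 0 were called, with 1 higher and 8 lower by the adjusted p alone, and Mki67 stood at 47.5 and 50.3 CPM against 54.8 and 54.7 CPM.

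Of 21 tested interferon genes 0 were called, and 10 were higher and 0 lower by the adjusted p alone. Over all genes, 1.41% were called higher and 0.48% lower, and 13.9% passed the adjusted p alone in either direction. Of 7 MHC class II genes, Ciita and H2-Eb1 were called, but H2-Eb1 was higher in replicate 1 only, at 8.997 CPM against 2.09 CPM, and stood at 1.17 CPM against 1.78 CPM in replicate 2. Of 18 heat shock and dissociation genes, Hspa1a was called lower on the strength of replicate 2 (9.74 against 33.5 CPM), with 12.6 against 11.7 CPM in replicate 1, and its log2 difference turned to 0.11 when cells were ranked on summed CPM. By the adjusted p alone 1 of the 18 was higher and 9 were lower. A list made for cytokines and growth factors that act on myeloid cells had 25 tested genes. Ccl2 was called higher, at 65.0 and 24.5 CPM against 18.0 and 18.7 CPM. Ccl20 was called lower, with 1 and 4 UMIs against 71 and 45, of which the fullest other cell held 43.7% and 20%. Crabp1, also on the list, was called lower, but it binds retinoic acid and is not such a factor. By the adjusted p alone 4 of the 25 were higher and 7 lower. For Ccl2, the fullest cell held 31.1% and 21.4% of the UMIs of the ranked cells.

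Among 10 tested Notch genes 2 were called higher, against 1.41% of all genes: Lfng and Dlk1, the latter mainly from single cells as given above. The other lists not yet described gave 1 call or none. Sox5, a cartilage factor, stood at 2.47 and 5.06 CPM against 1.85 and 1.78 CPM. The Wnt inhibitor Nkd1 stood at 6.30 and 3.70 CPM against 2.36 and 2.34 CPM, and Lfng, which modifies Notch, at 7.65 and 7.40 CPM against 3.56 and 3.74 CPM. The glutamate transporter Slc1a3 had 9 and 5 UMIs in the ranked cells and 16 and 9 in the others, the ecto-nucleotidase Nt5e 9 and 6 against 11 and 7, and the neuronal RNA-binding gene Elavl4 1 against 45. The lists of FGF signals, MAPK feedback, neural crest and axial patterning, hypoxia, the ATF4 response and p53 gave 0 calls among 6, 21, 24, 17, 23 and 13 tested genes. By the adjusted p alone, 3 of the FGF genes were higher and 0 lower, and 4 of the MAPK feedback genes were higher and 5 lower. Of the patterning genes 7 were higher and 1 lower, and of the hypoxia genes 1 was higher and 2 lower. Of the ATF4 genes 2 were higher and 7 lower, and of the p53 genes 4 were higher and 2 lower. Of 11 tested astrocyte genes, Slc1a3 among them, 4 were higher and 0 lower. The share of all genes was 13.9% in either direction. The oligodendrocyte and lymphocyte lists gave 0 calls among 4 and 1.

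The score also went with abundant genes at the level of single cells. Over 692 and 542 gated cells, Igfbp4 had a Spearman correlation with the score of 0.345 in each library, the highest of the genes outside the rule by the lower of both values. Ifitm1 followed at 0.324 and 0.331, and Pmepa1 at 0.281 and 0.307. Points in this measure share libraries and depth, so no p is given. Ifitm1, an interferon-induced membrane protein, stood at 1509 and 1255 CPM in the ranked cells against 947 and 814 CPM.

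Clustering of the gated cells without the ranking genes gave 10 clusters at the main resolution, with ranked cells in all 10 and most often in 1 of them. Cluster 1 held 62 of the 200 ranked cells, or 31%, and was 10.5% of gated cells, and ranked cells made up 38.6% of it in replicate 1 and 58.3% in replicate 2. Its leading genes by fold were Sec24a, Lmcd1, Cp, Dlk1 and Trbc1. In the ranked cells, Sec24a in replicate 1 and Dlk1 in both libraries had most of their UMIs in 1 cell, as given above. In the other clusters the share of ranked cells ran from 0% to 22.4% in a library, against 14.5% and 18.5% of all gated cells. Among the nearest neighbours of a ranked cell, 29.6% and 30.9% were ranked cells, against 11.1% and 10.4% around the other cells. With a coarser setting of 5 clusters, 40% of ranked cells fell in 1 cluster and were 20.2% of it. A smaller cluster of that setting held 11 ranked cells among 26 in replicate 1 (42.3%) and 16 among 28 in replicate 2 (57.1%). With a finer one of 22, 23% fell in 1 cluster of 67 cells, of which 46 (68.7%) were ranked cells, a higher share than in cluster 1 at the main resolution (47.7%).

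**Figure D4:**
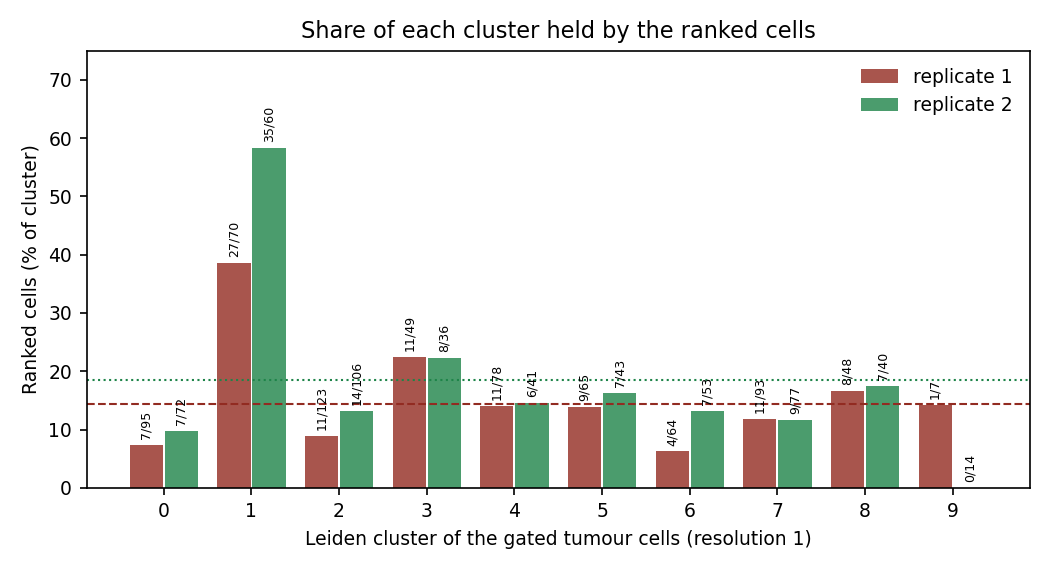
Ranked cells as a percentage of each Leiden cluster of the gated tumour cells, by replicate, with ranked over all cells written on each bar and lines at the share of all gated cells (dashed, replicate 1, 14.5%; dotted, replicate 2, 18.5%). Cluster 1 stands out at 38.6% and 58.3%, and the other clusters hold ranked cells as well.

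The nearest class in the ranking genes was the Pdgfrb-positive tumour cells, which the gate left out. Pdgfrb encodes the platelet-derived growth factor receptor found on mesenchymal and mural cells. These 652 cells had 56.4 and 53.2 CPM of Scx, 182 and 193 CPM of Tnnt2, 31.4 and 29.8 CPM of Timp3, 110 and 114 CPM of Igfbp7 and 18.8 and 24.0 CPM of Plpp3. Of them, 145 of 340 (42.6%) in replicate 1 and 152 of 312 (48.7%) in replicate 2 scored at or above the score of the last ranked cell. Their median scores were 20.08 and 20.30, just under the limits. A cell without a UMI of Pdgfrb can still hold its RNA, so the gate does not show that the ranked cells lack the gene.

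In a second edgeR fit against the Pdgfrb-positive cells, 27 of 11568 genes (0.233%) were called, 10 (0.0864%) higher and 17 (0.147%) lower in the ranked cells, and 124 (1.07%) had an adjusted p under 0.05 at any fold. The fits share the ranked cells and estimate their spread separately, so the numbers of calls are given side by side and their difference was not tested. Lmcd1 stood at 27.9 and 24.9 CPM in the Pdgfrb-positive cells against 16.0 and 24.0 CPM in the ranked cells. Cp stood at 28.1 and 38.5 CPM there against 19.8 and 24.0 CPM, and Myzap at 18.4 and 17.5 CPM against 22.5 and 21.04 CPM. None of these 3 was called between them. H19, at 32.2 and 30.5 CPM in the Pdgfrb-positive cells, was called lower in the ranked cells (log2 difference -1.40).

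The named genes lower in the ranked cells than in the Pdgfrb-positive cells included several secreted and matrix genes. Mgp, the matrix Gla protein that restrains calcification, had 5 and 4 UMIs in the ranked cells, at 1.13 and 0.779 CPM, against 10.1 and 17.1 CPM in the Pdgfrb-positive cells (log2 difference -3.82, SE 0.31, edgeR adjusted p = 3.294e-06). Ptn, the growth factor pleiotrophin, stood at 1.58 and 0.974 CPM against 8.56 and 7.43 CPM. The matrix proteases Mmp13 (4.27 and 2.73 CPM against 12.1 and 16.5 CPM) and Mmp3 (0.675 and 1.36 CPM against 13.1 and 4.34 CPM) fell too. So did the collagen chains Col3a1 (4.27 and 3.51 CPM against 11.3 and 10.1 CPM), Col6a1 (8.997 and 6.43 CPM against 19.8 and 18.4 CPM) and Col6a2, with 3 UMIs in the ranked cells against 113.

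By list, 3 of 14 tested collagen chains, 2 of 21 inhibitors and metalloproteases and 1 of 32 matrix glycoproteins were called lower, and none of the 3 lists had a call in the other direction. Over all genes, 0.147% were called lower. Col6a1 and Enpp2 lay between the other classes: each was higher in the ranked cells than in the other gated cells and lower than in the Pdgfrb-positive cells. Enpp2 stood at 2.25 and 1.56 CPM against 5.71 and 7.43 CPM in the Pdgfrb-positive cells. Further falls were in Car2 (carbonic anhydrase 2), Lbp (lipopolysaccharide-binding protein), Tmem119, Meox1 and Esm1. Among named rises, Hbb-bs, Dlk1, Sec24a and Hspa1a each had at least 50% of their UMIs in 1 ranked cell of a library, and Hspa1a turned to -0.92 on the log2 scale with the top 50 cells.

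**Figure D5:**
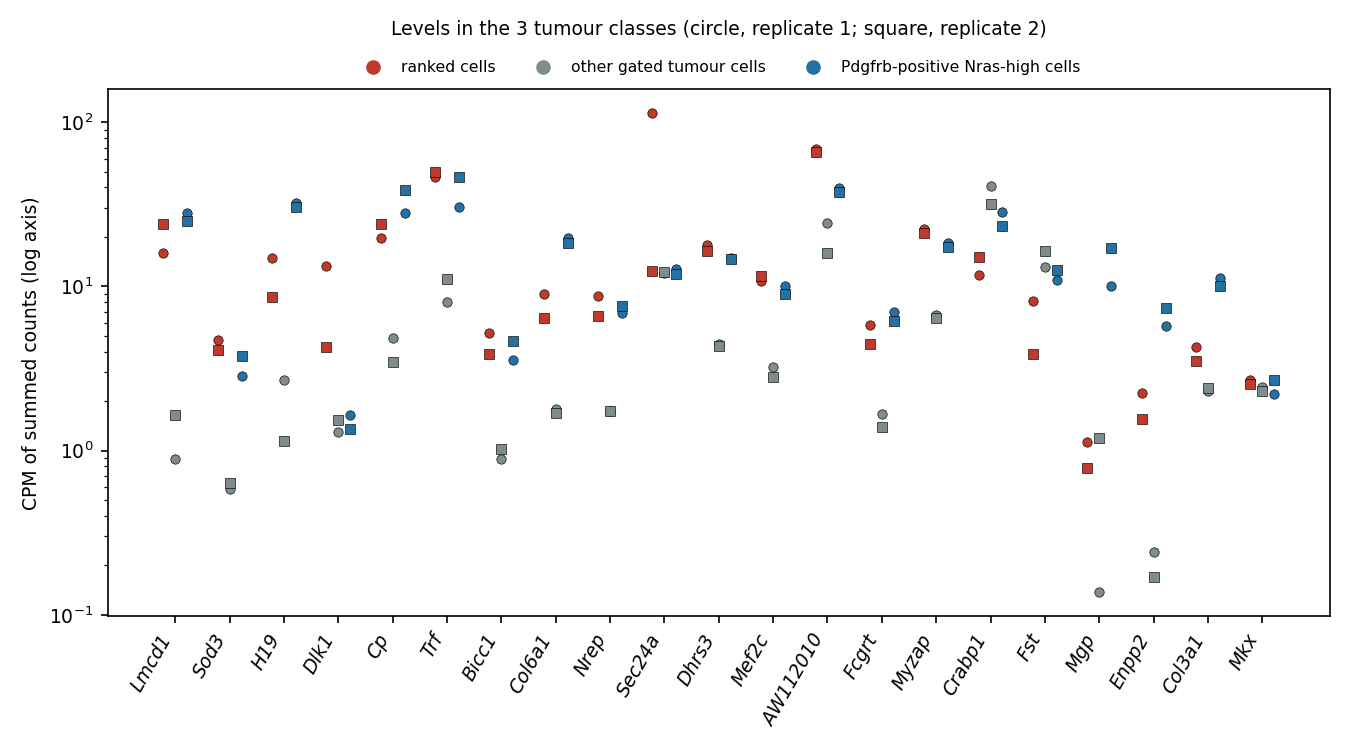
CPM on a log axis of 21 genes in the ranked cells, the other gated tumour cells and the Pdgfrb-positive Nras-high cells (circle, replicate 1; square, replicate 2). For Lmcd1, Cp and Myzap the ranked and Pdgfrb-positive cells both lie above the other gated cells; Mgp is highest in the Pdgfrb-positive cells, and Mkx is alike in the 3 classes.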

How the data were processed

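Single-cell RNA was measured by droplet sequencing in 2 libraries of 1 group. Per the labels' protocols, the authors aligned reads to mm10 with STAR in Cell Ranger 3.1 and counted UMIs per gene and barcode, and the deposited values are raw counts. A merging of runs at 1 sequencing depth is mentioned as well, but the deposited totals differ, and the deposited counts were taken unchanged. The gene annotation is not given in the sources used here. Gene positions come from GENCODE M21 (GRCm38, the assembly of mm10), where 31011 of 31053 identifiers were found. Reads of close copies can be split or lost in such counting, and overlapping genes can share reads.

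The ranked cells, the gene lists and the comparisons were chosen with earlier results of these data known. Myeloid cells were those with at least 10 UMIs of Tyrobp and Fcer1g and Nras under 500 CPM. No doublet caller was run, and an alternative left out the deepest 5% of gated cells. The CPM of a class divides its summed count by its summed UMIs in that library and multiplies by 1000000.

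Counts were summed per class and library into 4 sums a fit and tested with edgeR 4.0.16 in R 4.3.3 (quasi-likelihood test, TMM factors, filterByExpr, library as a block, 1 residual degree of freedom). Benjamini-Hochberg adjustment ran over all genes of the fit, the ranking and gating genes included. Those genes were then left out of the calls and of the numbers of genes tested. The block needs no further check because both classes of a pair are cells of 1 library. In the fit against the other gated cells the spread was shared by all genes (prior degrees of freedom infinite), so a gene that differs in 1 library alone can be called; in the other fit the prior degrees of freedom were 14.45. A gene was called at an adjusted p under 0.05 and an absolute log2 difference of at least 1. The p-values take ranked cells as given and do not hold the spread between cells. An adjusted p that DESeq2 1.42.0 left blank stayed blank. On simulated counts with 200 changed genes, the fit against the other gated cells (11682 genes) recovered 97% of 4-fold changes and called 5 unchanged genes. An adjusted p under 0.05 was reached by 84% of 2-fold changes and by 14 unchanged genes. The simulated sums held no clumping of counts in single cells and no change in 1 library alone, so false calls of those kinds were not tested.

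The genes named are the 15 largest called rises and 10 largest falls with the same sign in both libraries and at least 20 UMIs in the higher class of each, up to 4 called genes of each list, the ranking and gating genes, and 8 tendon genes, Scx among them. Other genes named were chosen after their values were seen, and some genes are not reported here. Clusters used scanpy 1.11.5 (2000 variable genes, 30 components, 15 neighbours, Leiden). Binomial intervals are exact at 95% and cover counting error only.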

Additional observations from a re-analysis of the deposited data

How the results depend on the processing

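The number of called genes depended on the setting more than the direction of single genes did. Against the other gated tumour cells (165 higher, 56 lower), the DESeq2 Wald test called 9 higher and 1 lower, and without a minimum fold 867 and 756 passed. The top 50 cells per library gave 262 higher and 123 lower, and the top 200 gave 97 higher. Thinning to 10000 UMIs gave 80 higher, and Nras of at least 2000 CPM 99 higher. The lower calls were 101 in low-cycling cells, 36 with cells matched on UMI total, 33 without cells with markers of other types, and 34 with no replicate block. Against the Pdgfrb-positive cells (10 higher, 17 lower), the DESeq2 Wald test called 1 and 3, no filter on low counts 22 and 30, no minimum fold 86 and 38, no replicate block 3 and 10, thinning 6 and 8, and the top 50 cells 37 and 45. The top 200 gave 59 lower, and a robust spread, added after seeing the data, 5 higher. The causes were not tested.

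For named genes across alternatives that keep both libraries, 872 values against the other gated cells kept direction and call. Another 181 kept direction and lost the call, and 5 turned. For the Pdgfrb-positive cells the numbers were 96, 35 and 1. A named gene that an alternative left untested or without an adjusted p was not counted. In the comparison with the other gated cells, the DESeq2 Wald test thus gave only 3 kept and 2 lost. Thinning gave 18 and 7, and matching on UMI total 25 and 6. Against the other gated cells, the log2 difference of Dlk1 was -1.65 with Nras of at least 2000 CPM and -0.30 when ranked on summed CPM, that of Sec24a -0.73 and of Fst 0.47 in low-cycling cells, that of H2-Eb1 -0.61 without replicate 1 and 2.11 without replicate 2, and that of Hspa1a 0.11 when ranked on summed CPM, 0.11 without replicate 2 and -1.78 without replicate 1. Against the Pdgfrb-positive cells, Hspa1a was at -0.92 with the top 50 cells. Leaving out the 3 cells of replicate 1 and 2 of replicate 2 with 10 or more haemoglobin UMIs turned no named gene. With 2 libraries, leaving out 1 gives a value and no test. Low counts limit the rare genes: 3 counts correspond to 0.675 and 0.584 CPM in the ranked cells.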

Other observations

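Called rises outside the lists and the largest 15 included growth factor, receptor and junction genes, picked here after their values were seen. Pdgfc, a platelet-derived growth factor ligand, stood at 12.4 and 14.2 CPM in the ranked cells against 4.52 and 5.27 CPM in the other gated tumour cells (log2 difference 1.40, SE 0.19). Gfra2, a coreceptor for the ligand neurturin, stood at 14.6 and 15.6 CPM against 6.99 and 7.05 CPM, and Ramp1, a partner of the calcitonin-receptor-like receptor, at 16.2 and 18.5 CPM against 7.67 and 7.64 CPM. The junction adhesion molecule Jam2 stood at 22.5 and 20.5 CPM against 8.53 and 8.07 CPM, and Pmp22, a membrane protein of peripheral myelin, at 13.3 and 12.5 CPM against 4.56 and 4.12 CPM.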
